A study of Homo sapiens with 8 samples.

Results

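mRNA levels in AML-OCI3 cells were compared between 48 h with 40 nM JIB-04 and 48 h with DMSO, its vehicle. AML-OCI3 is an established human line of acute myeloid leukaemia (AML), and JIB-04 blocks Jumonji (JmjC) histone lysine demethylases. The comparison used 4 of the 8 libraries of the series, chosen by their labelled time: 2 libraries of cells with JIB-04 and 2 of cells in DMSO alone. The other 4 libraries had the same design at 24 h. Per its title the study concerns ferroptosis and the sensitivity of AML cells to venetoclax, which blocks BCL2, but no labelled treatment included venetoclax. All groups came from 1 cell line grown in RPMI with serum, and the labels do not say whether replicates were separate cultures, so p-values measure only the spread between libraries, which may be technical. All 26805 genes of the 48 h table were considered, and the 14624 that passed a filter on low counts were tested.

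JmjC demethylases remove methyl groups from histone lysines and need iron, oxygen and 2-oxoglutarate to do so. In ferroptosis, cells die of the peroxidation of membrane lipids, which depends on iron. Cells hold it back with cystine imported through SLC7A11, the glutathione made from it and the lipid peroxidase GPX4, while ferritin stores iron in a safe form. The integrated stress response is a pathway in which phosphorylation of eIF2α slows most protein synthesis and raises translation of the transcription factor ATF4, whose targets include genes for amino acid import, amino acid synthesis and tRNA charging.

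Changes after 48 h included rises of the stress genes GDF15, PPP1R15A, DDIT3, SAT1 and SQSTM1 and of ferritin. Falls included genes that supply amino acids, among them SLC7A11, PSAT1 and ASNS. These genes were picked by theme. CEMIP, ARRDC3 and MT2A rose by more than all of them but GDF15 (log2 fold changes 2.85, 2.37 and 2.28). S100P had the largest fall among the named genes (log2 fold change -2.18). In all, 496 of 14624 genes passed at an adjusted p under 0.05 (3.39% of tested genes), 361 higher (2.47%) and 135 lower (0.923%) with JIB-04. Of these, 170 differed by at least 2-fold (1.16% of tested genes) and 432 were protein-coding. The log2 fold changes of all tested genes had a median of 0.00 and quartiles of -0.16 and 0.19. Of the 496, 65 had a mean log2 CPM under 1, where CPM is the count scaled to library size. Genes are described below as higher, risen, lower or fallen only where they passed this test. Counts of passing members of a gene list are to be read beside the 3.39% of all tested genes. Those given after removal of the GC trend are to be read beside the 14.2% that passed in that fit. For list counts at an unadjusted p under 0.05, the share of all tested genes at 48 h is not given. Such counts therefore cannot be judged as high or low. The groups did not overlap in 7285 of all tested genes (49.8%), so a lack of overlap does not by itself set a gene apart. In bulk RNA, a change in the share of a kind of cell and a change of RNA per cell cannot be told apart.

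**Figure D1:**
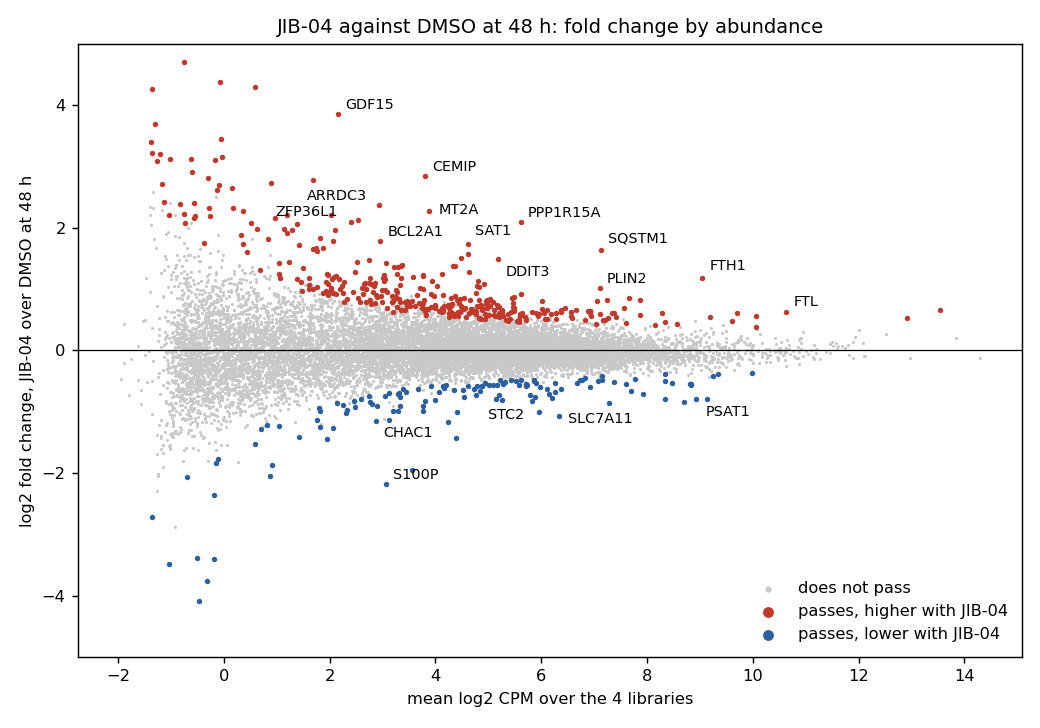
Each point is 1 of the 14624 tested genes, placed by its mean log2 CPM over the 4 libraries and its log2 fold change, JIB-04 over DMSO at 48 h. Red points (361) passed as higher, blue points (135) passed as lower, grey points did not pass, and 8 genes lie beyond the axis at 5. GDF15 stands highest among the labelled genes and S100P lowest.

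Library totals were 18783093 and 21807056 counts with JIB-04 and 19569169 and 22193377 in DMSO. Mitochondrially encoded genes held 7.26% and 8.01% of the counts with JIB-04, against 6.18% and 6.63% in DMSO. Across 7894 well expressed genes, the log2 difference between the JIB-04 replicates followed the GC content of the gene (Spearman's rho 0.850), and that between the DMSO replicates hardly did (0.047). These differences had an SD of 0.244 with JIB-04 and 0.105 in DMSO. In the quintile of genes with the highest GC content, JIB-04 replicate 1 deviated from the gene mean by a median of 0.25 on the log2 scale, and 79 genes passed as higher and 6 as lower. Genes are not independent replicates, and these values describe the libraries. When each library was corrected for its trend over GC content, 2075 genes passed (14.2% of tested genes), 1079 higher (7.38%) and 996 lower (6.81%), so that 52.0% of calls were higher, against 72.8% without this step. Of the 496 genes, 477 also passed after this step. The count also depended on single libraries. It was 191 (1.25% of tested genes) without DMSO replicate 1 and 233 (1.54%) without DMSO replicate 2, of which 140 and 164 were among the 496. It was 2967 (19.4%) without JIB-04 replicate 1 and 4777 (31.6%) without JIB-04 replicate 2, where the spread came from the DMSO pair alone and 488 and 490 of the 496 passed. In a fit of all 8 libraries 59 genes passed (0.387%), all among the 496. In all 12 alternative analyses 54 genes passed (0.369% of tested genes), 44 higher and 10 lower. Of 122 passing genes taken by the naming rule given with the processing, 34 did so in all 12, and these are pointed out below. The rest of the 122 lost their call in some alternative, also where the text names no loss or only part of the losses. DESeq2 called 111 of the 122 and limma-voom 110, while 58 passed without DMSO replicate 1, 65 without DMSO replicate 2 and 36 in the fit of all 8 libraries.

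**Figure D2:**
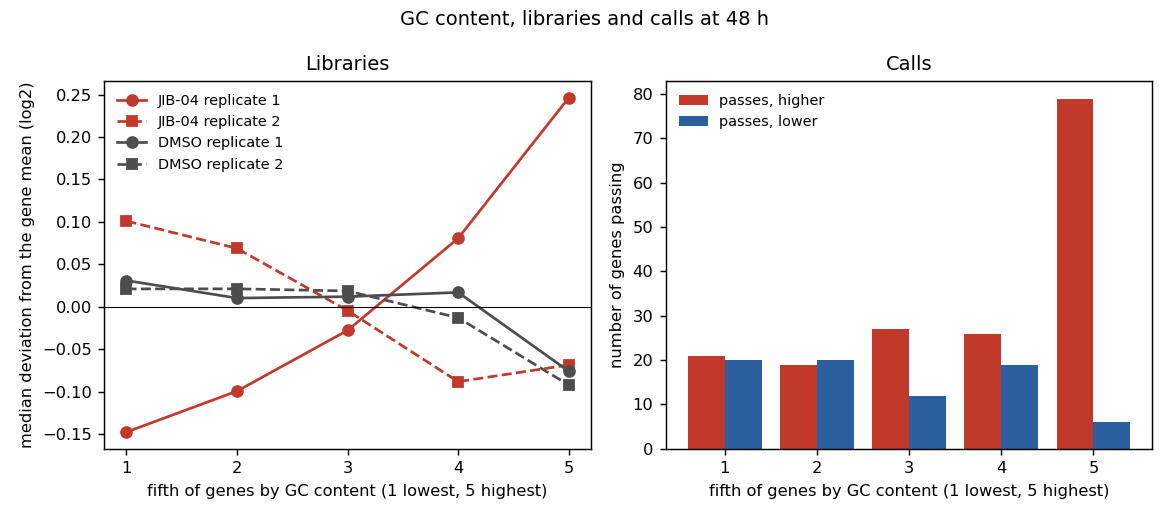
Left, the median deviation of each library from the gene mean on the log2 scale, in quintiles of 7894 well expressed genes from the lowest (1) to the highest (5) GC content; right, the number of these genes that passed as higher or lower in each quintile. JIB-04 replicate 1 deviates most, by 0.25 in the highest quintile, where 79 genes passed as higher and 6 as lower.

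Within the integrated stress response, GDF15, PPP1R15A and DDIT3 rose while other genes known as ATF4 targets fell. GDF15, a secreted stress cytokine (hg38, ENSG00000130513, chr19:18374731-18389176), had 19 and 13.6 CPM in the JIB-04 libraries and 1.27 and 0.986 CPM in the DMSO libraries. Both JIB-04 libraries lay far above both DMSO libraries. Its log2 fold change was 3.85 ± 0.25 (SE; adjusted p = 2.59e-06). PPP1R15A, the subunit that directs dephosphorylation of eIF2α and so ends the response (ENSG00000087074, chr19:48872392-48876057), had 111 and 91.9 CPM with JIB-04, against 23.9 and 23.4 CPM in DMSO. It rose by 2.10 ± 0.13 on the log2 scale (SE; adjusted p = 2.59e-06), with no overlap between the groups, as was so for 49.8% of all tested genes. DDIT3, which encodes the transcription factor CHOP, had 62.9 and 58.9 CPM in the JIB-04 libraries and 21.2 and 22.3 CPM in the DMSO libraries, and its log2 fold change was 1.48 ± 0.13 (SE; adjusted p = 2.63e-05). These 3 rises held in each of the 12 alternative analyses.

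ATF4 itself did not pass, at 819 and 754 CPM in the JIB-04 libraries and 929 and 935 CPM in the DMSO libraries (log2 fold change -0.25, adjusted p = 0.181). Of 22 tested genes of integrated stress response signalling, 3 rose, 8 fell and 11 did not pass, and the median log2 fold change was -0.26. CHAC1, an enzyme that degrades glutathione and a known CHOP and ATF4 target, had 12.7 and 12.3 CPM with JIB-04, against 28.8 and 27.8 CPM in DMSO. Its level with JIB-04 was under that in DMSO in every library, and its log2 fold change was -1.18 ± 0.14 (SE; adjusted p = 4.41e-04). STC2, a secreted glycoprotein, had 44.0 and 43.7 CPM with JIB-04, against 85.6 and 89.7 CPM in DMSO (log2 fold change -1.0 ± 0.11 SE, adjusted p = 3.80e-04), and this fall held in all 12 alternatives. DDIT4, an inhibitor of mTORC1, fell by 0.72 and VLDLR, a lipoprotein receptor, by 0.78, with adjusted p of 0.0108 and 0.00391. TRIB3, a pseudokinase that restrains ATF4 and CHOP, fell by 0.57 (adjusted p = 0.0308). VEGFA, a growth factor for blood vessels, fell by 0.72 (adjusted p = 0.00539). The transcription factor ATF5 (log2 fold change -0.53, adjusted p = 0.0437) and the stress protein NUPR1 (log2 fold change -1.28, adjusted p = 0.0458) fell as well, so that most genes of the list that passed were lower. The calls of CHAC1, DDIT4, VLDLR, TRIB3, VEGFA, ATF5 and NUPR1 were lost in the fit of all 8 libraries. The antisense genes DDIT4-AS1 (log2 fold change -1.44, adjusted p = 4.92e-04) and VLDLR-AS1 (log2 fold change -1.26, adjusted p = 0.00492) fell together with their partners, and the call of VLDLR-AS1 held in all 12 alternatives. The sources used here do not give whether counting took the strand into account, so reads of an antisense gene and its partner cannot be told apart.

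**Figure D3:**
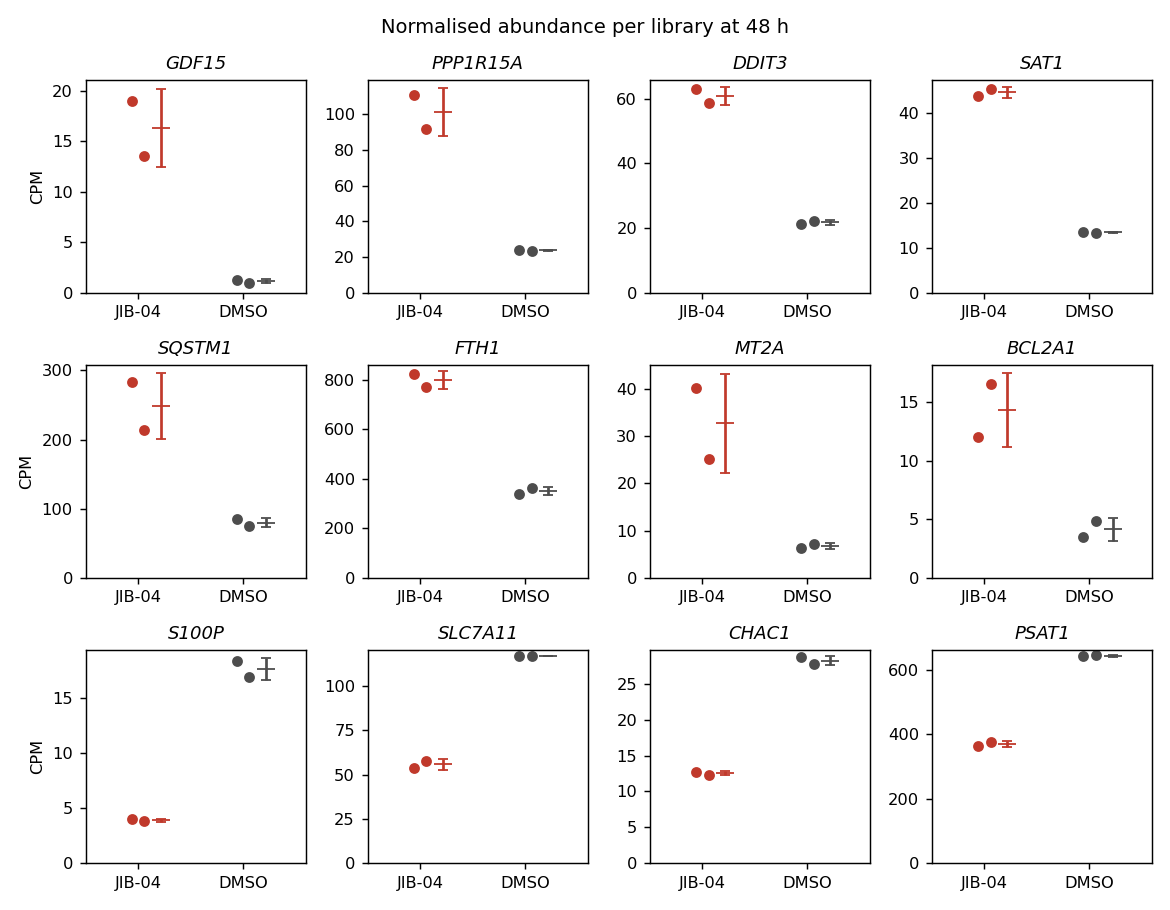
CPM of 12 genes at 48 h, with JIB-04 libraries in red at the left and DMSO libraries in grey at the right of each panel; points are single libraries and the bar beside them is the mean with its SD (n = 2). In all 12 panels the points of the groups do not overlap, as was so for 49.8% of all tested genes: GDF15 through BCL2A1 are higher with JIB-04, and S100P, SLC7A11, CHAC1 and PSAT1 are lower.

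Part of the genes that make amino acids fell with JIB-04. Of 18 tested genes of serine, one-carbon and asparagine synthesis, 7 fell and none rose, and 16 of the 18 had negative log2 fold changes with a median of -0.34. PSAT1, an aminotransferase of serine synthesis (ENSG00000135069, chr9:78297143-78330093), had 363 and 377 CPM in the JIB-04 libraries and 642 and 646 CPM in the DMSO libraries. The replicates were close to each other in both groups, and the log2 fold change of -0.80 ± 0.10 (SE; adjusted p = 5.51e-04) held in all 12 alternatives. ASNS, asparagine synthetase, had 277 and 340.3 CPM with JIB-04, against 547 and 565 CPM in DMSO (log2 fold change -0.85 ± 0.11 SE, adjusted p = 0.00105). ALDH1L2, a mitochondrial enzyme of folate metabolism, fell by 0.72 (adjusted p = 0.00391), and CTH, which makes cysteine from cystathionine, by 0.98 (adjusted p = 0.00386). The remaining 3 that fell were PHGDH and PSPH, which open and close the serine pathway, and GPT2, an alanine aminotransferase, by 0.48 to 0.50. Apart from PSAT1, these calls were lost in the fit of all 8 libraries.

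Among the enzymes that load tRNAs with amino acids, some cytosolic ones fell. Of 20 tested cytosolic aminoacyl-tRNA synthetases, 4 fell and none rose, with a median log2 fold change of -0.25, and 18 of the 20 values were negative. WARS1, for tryptophan, had 382 and 362 CPM with JIB-04, against 562 and 545 CPM in DMSO (log2 fold change -0.57 ± 0.10 SE, adjusted p = 0.00563). It did not pass without DMSO replicate 1 (adjusted p = 0.423) or replicate 2 (adjusted p = 0.23). MARS1, for methionine, fell by 0.53, CARS1, for cysteine, by 0.48 and AARS1, for alanine, by 0.41, with adjusted p of 0.0132, 0.0316 and 0.0415. Of 17 tested mitochondrial synthetases none passed in edgeR, DESeq2 or limma-voom and 2 had an unadjusted p under 0.05 in edgeR. Their median was -0.03, with IARS2 at 157 and 197 CPM in the JIB-04 libraries and 179.9 and 186 CPM in the DMSO libraries. All 4 calls were lost in the fit of all 8 libraries. The difference between the compartments was not tested. With the GC trend removed, 12 cytosolic synthetases fell and none rose, beside 6.81% of all tested genes that fell in that fit.

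Of 19 tested amino acid transporters, 2 fell and none rose (10.5%, against 3.39% of all tested genes that passed), and the median was -0.30. SLC7A11, the exchanger that imports cystine for glutathione synthesis (ENSG00000151012, chr4:138164097-138242349), had 53.5 and 57.9 CPM in the JIB-04 libraries and 117 and 117 CPM in the DMSO libraries. Both JIB-04 libraries lay far below both DMSO libraries, and its log2 fold change was -1.07 ± 0.11 (SE; adjusted p = 1.84e-04). SLC38A1, a glutamine transporter, had 106 and 124 CPM with JIB-04, against 207 and 211 CPM in DMSO (log2 fold change -0.86 ± 0.11 SE, adjusted p = 9.57e-04). Both held in all 12 alternatives. SLC3A2, the partner chain of SLC7A11, had 346 and 286 CPM with JIB-04, against 311 and 328 CPM in DMSO and did not pass (log2 fold change -0.02, adjusted p = 0.967). SLC7A5, which imports large neutral amino acids, had 549.6 and 439.7 CPM with JIB-04, against 662 and 674 CPM in DMSO (log2 fold change -0.43, adjusted p = 0.0546). After removal of the GC trend 12 transporters fell and 1 rose, beside 14.2% of all tested genes that passed in that fit.

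Promoters of the amino acid and stress genes that fell are shown because some hold the letters TGATGNAA, the core of the amino acid response element described in the ASNS promoter. Promoters were the RefSeq sequences of GRCh38.p14 from 250 bases before to 50 after the gene start, available for 10345 of the 14624 tested genes and searched on both strands. Of 24 passing members of the 4 lists above, 18 had a promoter, and 6 of these held a match. In the windows below the match is in capitals and is read 5′ to 3′ on the strand where it lies.
CHAC1, chr15:40953247-40953284, minus strand: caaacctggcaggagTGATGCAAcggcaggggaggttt
SLC38A1, chr12:46266498-46266535, minus strand: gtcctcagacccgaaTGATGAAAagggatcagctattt
ASNS, chr7:97872454-97872491, minus strand: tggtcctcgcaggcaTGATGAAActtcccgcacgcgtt
MARS1, chr12:57488049-57488086, minus strand: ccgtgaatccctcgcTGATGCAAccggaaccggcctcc
CARS1, chr11:3057403-3057440, plus strand: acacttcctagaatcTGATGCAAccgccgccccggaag
AARS1, chr16:70289671-70289708, plus strand: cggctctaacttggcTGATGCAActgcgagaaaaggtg
All 6 genes had fallen, as had 15 of the 18 members with a promoter. The 3 members that rose, GDF15, PPP1R15A and DDIT3, held no match within these bounds. Several members that fell, among them PSAT1, STC2 and CTH, held none either. Sequence further from the gene start was not searched. The motif stood in 1.77% of the promoters of all tested genes, in 10 of 83 promoters of genes that fell (12%) and in 3 of 273 promoters of genes that rose (1.1%). Among cytosolic synthetases it stood in 6 of 16 promoters (37.5%), among transporters in 4 of 18 (22.2%), in serine, one-carbon and asparagine synthesis in 3 of 12 (25%) and in stress response signalling in 3 of 19 (15.8%). No match overlapped a match of the other 3 motifs searched, TGANTCA, TGACNNNGC and TGACGTCA. These shares are descriptions and were not tested.

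Some genes for protein folding in the endoplasmic reticulum (ER) rose. Of 26 tested ER chaperones and unfolded protein response genes, 4 rose and none fell, with a median of 0.19. HSPA5, the main ER chaperone BiP, had 660.1 and 741 CPM in the JIB-04 libraries and 472 and 491 CPM in the DMSO libraries. Both JIB-04 libraries were above both DMSO libraries, with a log2 fold change of 0.54 ± 0.10 (SE; adjusted p = 0.0103). HSPA5 did not pass without DMSO replicate 1 (adjusted p = 0.512) or replicate 2 (adjusted p = 0.284). DNAJB9, a BiP co-chaperone, had 12 and 17.7 CPM with JIB-04, against 6.15 and 6.46 CPM in DMSO (log2 fold change 1.24 ± 0.20 SE, adjusted p = 0.00371). MANF, a secreted ER stress factor, rose by 0.48 and SEC61B, a subunit of the ER translocation channel, by 0.57, with adjusted p of 0.0422 and 0.0245. MANF did not pass in limma-voom (adjusted p = 0.0501). XBP1, a transcription factor of the unfolded protein response, had 284 and 302 CPM with JIB-04, against 289 and 295 CPM in DMSO and did not pass (log2 fold change 0.01, adjusted p = 0.982). All 4 calls were lost in the fit of all 8 libraries. Of 35 tested heat shock proteins, 4 passed, all higher: HSPA1A (log2 fold change 0.94, adjusted p = 0.00753), HSPA1B (log2 fold change 0.76, adjusted p = 0.0383), DNAJB2 and HSF1. DNAJB2 did not pass in DESeq2 or limma-voom, and HSPA1B did not pass in limma-voom. HSPA1A and HSPA1B are near-identical copies whose reads may have been split between them, and HSPA1A did not pass without DMSO replicate 1 (adjusted p = 0.146). HSPA1B moved to 0.44 without JIB-04 replicate 1. The value of HSF1, the heat shock transcription factor, was 0.66, against 0.31 after removal of the GC trend.

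Iron storage genes rose with JIB-04. FTH1, the ferritin heavy chain that oxidises iron for storage (ENSG00000167996, chr11:61959718-61967660), had 824 and 772 CPM in the JIB-04 libraries and 340.2 and 361 CPM in the DMSO libraries. The JIB-04 libraries stood far above the DMSO libraries, and the log2 fold change of 1.19 ± 0.10 (SE; adjusted p = 2.54e-05) held in all 12 alternatives. FTL, the ferritin light chain, had 2199 and 1779 CPM with JIB-04, against 1345 and 1218 CPM in DMSO (log2 fold change 0.63 ± 0.11 SE, adjusted p = 0.00585), and without DMSO replicate 2 it was at 0.57 with an adjusted p of 0.121. FTH1 has processed pseudogenes that can take some of its reads. TFRC, the transferrin receptor that imports iron, had 265 and 306 CPM in the JIB-04 libraries and 188 and 196 CPM in the DMSO libraries. It rose as well, by 0.57 ± 0.11 (SE; adjusted p = 0.0120). TFRC did not pass without DMSO replicate 1 (adjusted p = 0.578) or replicate 2 (adjusted p = 0.334). Of 20 tested genes of iron uptake, storage and export, these 3 rose and SLC39A14, a zinc and iron importer, fell (log2 fold change -0.39, adjusted p = 0.0499). NCOA4, which carries ferritin to lysosomes, had 568 and 615 CPM with JIB-04, against 552 and 568 CPM in DMSO (log2 fold change 0.08, adjusted p = 0.728). SLC40A1, the iron exporter ferroportin, had 0.483 and 0.508 CPM with JIB-04, against 0.915 and 0.628 CPM in DMSO. In TPM, which also scales by transcript length, FTL was at 3657 and 2991 TPM with JIB-04 and 2345 and 2126 TPM in DMSO, and FTH1 was at 1450.1 and 1389 TPM with JIB-04 and 636 and 672 TPM in DMSO, so that FTL was the more abundant chain in every library. The calls of FTL, TFRC and SLC39A14 were lost in the fit of all 8 libraries, and that of SLC39A14 also in limma-voom (adjusted p = 0.0557).

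Other genes of ferroptosis moved in both directions. Of 26 tested suppressors 1 rose (FTH1) and 1 fell (SLC7A11), with a median of -0.04, and of 23 tested drivers 2 rose (TFRC and SAT1) and 1 fell (CHAC1), with a median of 0.06. These calls made 7.69% of the suppressors and 13% of the drivers, against 3.39% of all tested genes that passed. GPX4, the lipid peroxidase, had 214 and 172 CPM in the JIB-04 libraries and 198 and 178 CPM in the DMSO libraries. It did not pass (log2 fold change 0.04, adjusted p = 0.912), while after removal of the GC trend it was lower, at -0.22 (adjusted p = 0.0455). Without JIB-04 replicate 2 it passed as higher, at 0.19 (adjusted p = 0.0147), so its direction was not stable. ACSL4, which loads polyunsaturated fatty acids for membrane lipids, had 186 and 237 CPM with JIB-04, against 225 and 220.4 CPM in DMSO (log2 fold change -0.07, adjusted p = 0.808). HMOX1, heme oxygenase, had 3.01 and 2.12 CPM with JIB-04, against 1.02 and 1.26 CPM in DMSO and narrowly missed the threshold (log2 fold change 1.16, adjusted p = 0.0689). SAT1, the acetyltransferase that starts polyamine breakdown (ENSG00000130066, chrX:23783173-23786226), had 43.7 and 45.4 CPM in the JIB-04 libraries and 13.5 and 13.4 CPM in the DMSO libraries. The JIB-04 replicates lay close together and apart from DMSO, with a log2 fold change of 1.73 ± 0.13 (SE; adjusted p = 1.25e-05) that held in all 12 alternatives. Of 15 tested polyamine genes, 3 rose and none fell: beside SAT1, its relative SAT2 (log2 fold change 1.10, adjusted p = 0.00439) and SMOX, spermine oxidase (log2 fold change 1.13, adjusted p = 0.00851), which had an adjusted p of 0.0757 without DMSO replicate 2. ODC1, the first enzyme of polyamine synthesis, had 191 and 203 CPM with JIB-04, against 165 and 174 CPM in DMSO (log2 fold change 0.22, adjusted p = 0.291).

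Of 35 tested NRF2 targets, 6 rose and 1 fell (SLC7A11), with a median of 0.17. SQSTM1, the autophagy receptor p62, had 283 and 214 CPM in the JIB-04 libraries and 84.3 and 75.5 CPM in the DMSO libraries. Its log2 fold change was 1.64 ± 0.14 (SE; adjusted p = 2.54e-05). AKR1C1, an aldo-keto reductase, had 42.5 and 39.4 CPM with JIB-04, against 18.6 and 18.8 CPM in DMSO (log2 fold change 1.13 ± 0.13 SE, adjusted p = 4.06e-04), and both held in all 12 alternatives. AKR1C2 (log2 fold change 1.37, adjusted p = 6.15e-04) and AKR1C3 (log2 fold change 1.71, adjusted p = 0.00348) rose as well, but these copies share much of their sequence, so reads may be split between them. NQO1, a quinone reductase, had 9.61 and 11.3 CPM with JIB-04, against 9.15 and 8.25 CPM in DMSO (log2 fold change 0.27, adjusted p = 0.425). TXNRD1, thioredoxin reductase, had 211 and 218 CPM with JIB-04, against 213 and 217 CPM in DMSO (adjusted p = 0.996), and the groups overlapped. GCLM, a subunit of the first enzyme of glutathione synthesis, had 16.1 and 15.4 CPM with JIB-04, against 19.3 and 17.5 CPM in DMSO (log2 fold change -0.22, adjusted p = 0.440). Of 26 tested genes of glutathione turnover, GPX1, GSTP1 and GLRX rose and CHAC1 fell. GLRX, glutaredoxin, had 14.6 and 13.7 CPM with JIB-04, against 7.98 and 8.25 CPM in DMSO (log2 fold change 0.80, adjusted p = 0.0138). The log2 fold change of GPX1 was 0.82, against 0.49 after removal of the GC trend and 0.55 without JIB-04 replicate 1, and that of GSTP1 was 0.52, against 0.26 and 0.33. GSTP1 did not pass in limma-voom (adjusted p = 0.0540).

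The BCL2 family controls the release of cytochrome c from mitochondria, and BCL2 is the target of venetoclax. BCL2 had 222 and 244 CPM in the JIB-04 libraries and 297 and 279 CPM in the DMSO libraries. Both JIB-04 libraries were lower, but the difference did not pass (log2 fold change -0.30, adjusted p = 0.135). Among 5 tested anti-apoptotic members 1 passed: BCL2A1, which had 12.1 and 16.6 CPM in the JIB-04 libraries and 3.46 and 4.84 CPM in the DMSO libraries. Its log2 fold change was 1.78 ± 0.21 (SE; adjusted p = 4.92e-04) and held in all 12 alternatives. In TPM, MCL1 was the most abundant of these 5 at 100.2 and 121 TPM with JIB-04 and 97.7 and 103 TPM in DMSO, followed by BCL2 at 47.1 and 50.1 TPM with JIB-04 and 64.4 and 60.2 TPM in DMSO. BCL2A1 was at 17.2 and 25.4 TPM with JIB-04 and 5.00 and 7.64 TPM in DMSO, below BCL2 in every library. Its JIB-04 values lay above those of BCL2L2 (14.7 and 14.9 TPM with JIB-04 and 15.9 and 14.8 TPM in DMSO) and BCL2L1 (12.2 and 10.3 TPM with JIB-04 and 9.38 and 11.4 TPM in DMSO), and its DMSO values below them.

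Of 13 tested pro-apoptotic members, 3 rose and none fell. BCL2L11, which encodes BIM, a binding partner of the anti-apoptotic members, had 68.3 and 66.2 CPM in the JIB-04 libraries and 33.2 and 37.7 CPM in the DMSO libraries. Every JIB-04 library was above every DMSO library, and the log2 fold change was 0.92 ± 0.12 (SE; adjusted p = 0.00102). Without DMSO replicate 1 BCL2L11 was at 0.83 with an adjusted p of 0.125. BBC3, which encodes PUMA, had 9.29 and 7.80 CPM with JIB-04, against 3.91 and 4.48 CPM in DMSO (log2 fold change 1.02 ± 0.19 SE, adjusted p = 0.0109). BAD had 6.82 and 4.39 CPM with JIB-04, against 2.24 and 2.87 CPM in DMSO (log2 fold change 1.12, adjusted p = 0.0327). Both values were smaller after removal of the GC trend, at 0.52 for BBC3 and 0.72 for BAD, and BAD did not pass in DESeq2. PMAIP1, which encodes NOXA, an inhibitor of MCL1, had 30.2 and 31.9 CPM with JIB-04, against 40.0 and 37.9 CPM in DMSO and did not pass (log2 fold change -0.33, adjusted p = 0.177). None of 29 tested caspases, inhibitors of apoptosis and death receptors passed in edgeR, DESeq2 or limma-voom, and 4 had an unadjusted p under 0.05 in edgeR. After removal of the GC trend 3 of the 29 rose and 1 fell, beside 14.2% of all tested genes that passed in that fit.

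Several metallothioneins, small proteins that bind zinc and copper, rose. Of 14 tested genes of metallothioneins and zinc handling, 5 rose, all metallothioneins, and SLC39A14 fell. MT2A (ENSG00000125148, chr16:56608199-56609497) had 40.2 and 25.3 CPM in the JIB-04 libraries and 6.30 and 7.13 CPM in the DMSO libraries. The JIB-04 replicates differed from each other by more than the DMSO replicates did. The groups did not overlap, as was so for 49.8% of all tested genes. The log2 fold change of MT2A was 2.28 ± 0.21 SE (adjusted p = 5.42e-05). MT1X had 50.5 and 34.9 CPM with JIB-04, against 16.5 and 12.3 CPM in DMSO (log2 fold change 1.57 ± 0.19 SE, adjusted p = 5.36e-04). MT1F rose by 0.88, MT1G by 0.87 and MT1E by 0.73, with adjusted p of 0.00631, 0.0104 and 0.0194. MTF1, the zinc-sensing factor known to drive them, had 49.9 and 50.1 CPM with JIB-04, against 48.4 and 50.6 CPM in DMSO (log2 fold change 0.01, adjusted p = 0.969), and SLC30A1, a zinc exporter, had 36.8 and 34.8 CPM with JIB-04, against 32.9 and 28.6 CPM in DMSO (log2 fold change 0.22, adjusted p = 0.402). Metallothionein genes are near-copies of each other, so single values are uncertain. All 5 calls were lost in the fit of all 8 libraries.

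Some genes of lysosomes, autophagy and lipid storage rose. Of 47 tested lysosomal genes 5 rose and none fell (10.6%, against 3.39% of all tested genes that passed), but the median was 0.06. CTSL, a cysteine protease, had 40.2 and 39.0 CPM in the JIB-04 libraries and 18.3 and 19.6 CPM in the DMSO libraries (log2 fold change 1.06 ± 0.13 SE, adjusted p = 5.81e-04). SGSH, a sulfatase, rose by 1.00 (adjusted p = 0.00492). CTSD, an aspartic protease, rose by 0.81, against 0.49 after removal of the GC trend, and TFE3, a transcription factor of lysosomal genes, by 0.50. LAMP1, a membrane protein of lysosomes, had 164 and 139 CPM with JIB-04, against 151 and 152 CPM in DMSO (log2 fold change 0.00, adjusted p = 0.999). Of 41 tested autophagy genes 4 rose: SQSTM1, WIPI1, GABARAPL1 (log2 fold change 1.10, adjusted p = 0.0173) and OPTN (log2 fold change 0.48, adjusted p = 0.0471). OPTN did not pass in limma-voom. WIPI1, which binds phosphoinositides on forming autophagosomes, had 10.6 and 11.4 CPM with JIB-04, against 3.40 and 4.48 CPM in DMSO (log2 fold change 1.48 ± 0.19 SE, adjusted p = 8.88e-04). PLIN2, the coat protein of lipid droplets, had 210.4 and 182 CPM in the JIB-04 libraries and 95.8 and 98.5 CPM in the DMSO libraries. It rose by 1.01 ± 0.11 on the log2 scale (SE; adjusted p = 3.44e-04), while DGAT2, which makes triglycerides, fell by 0.80 (adjusted p = 0.00823). CTSL, WIPI1 and PLIN2 held in all 12 alternatives.

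Several inflammatory mediators rose. Of 22 tested cytokines and chemokines 8 rose, 1 fell and 13 did not pass, and 20 of the 22 log2 fold changes were positive, with a median of 0.74 against 0.00 over all tested genes. IL1B, interleukin-1β, had 131 and 123 CPM in the JIB-04 libraries and 80.0 and 80.3 CPM in the DMSO libraries. IL1RN, the antagonist of its receptor, had 47.2 and 44.9 CPM with JIB-04, against 28.7 and 27.9 CPM in DMSO. IL1B rose by 0.66 and IL1RN by 0.70 on the log2 scale (adjusted p = 0.00445 and 0.00690), with no overlap between the groups, as was so for 49.8% of all tested genes. The call of IL1B was lost without DMSO replicate 1 (adjusted p = 0.383) and without replicate 2 (adjusted p = 0.277). CXCL8, a neutrophil chemokine, had 314 and 344 CPM with JIB-04, against 234 and 258 CPM in DMSO (log2 fold change 0.42, adjusted p = 0.0495), and HBEGF, a growth factor of the EGF family, had 17.3 and 17.4 CPM with JIB-04, against 9.6 and 11.1 CPM in DMSO (log2 fold change 0.74, adjusted p = 0.0172). CXCL3 had 2.31 and 2.26 CPM with JIB-04, against 0.356 and 0.538 CPM in DMSO (log2 fold change 2.33, adjusted p = 0.00450). CXCL1 (log2 fold change 0.92, adjusted p = 0.0169), CCL3 (2.79 and 1.71 CPM with JIB-04, against 0.762 and 0.448 CPM in DMSO) and CCL7 (1.23 and 1.15 CPM with JIB-04, against 0.356 and 0.179 CPM in DMSO) rose too, the last 2 at few reads. CXCL1 and CXCL3 are near-copies of CXCL2, so their reads may be shared. CCL2, a monocyte chemokine, was the one that fell, at 48.2 and 41.8 CPM in the JIB-04 libraries and 74.8 and 77.7 CPM in the DMSO libraries (log2 fold change -0.76 ± 0.12 SE, adjusted p = 0.00371). TNF had 28.2 and 26.0 CPM with JIB-04, against 21.5 and 20.8 CPM in DMSO and did not pass (log2 fold change 0.36, adjusted p = 0.162). The 9 genes that passed did not pass in the fit of all 8 libraries.

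Of 23 tested NF-κB subunits and feedback genes 5 rose and none fell, and the median was 0.43, against 0.24 after removal of the GC trend. NFKBIZ, an atypical IκB protein, had 61.0 and 56.0 CPM with JIB-04, against 30.9 and 33.4 CPM in DMSO (log2 fold change 0.86 ± 0.12 SE, adjusted p = 0.00184). The inhibitor NFKBIA rose by 0.48, the deubiquitinase TNFAIP3 by 0.56 and IER3 by 1.45, with adjusted p of 0.0457, 0.0199 and 0.00227. BCL3, a further IκB protein, was at few reads (2.26 and 2.31 CPM with JIB-04, against 0.356 and 0.986 CPM in DMSO). Its log2 fold change was 1.73, against 2.66 without DMSO replicate 2 and 1.20 without DMSO replicate 1. The call of BCL3 was lost without DMSO replicate 1 (adjusted p = 0.361), in DESeq2 (adjusted p = 0.0887), after removal of the GC trend (adjusted p = 0.0554) and in the fit of all 8 libraries. The subunits RELA (log2 fold change 0.16, adjusted p = 0.544) and NFKB1 (log2 fold change 0.14, adjusted p = 0.558) did not pass. Of 34 tested AP-1, EGR and immediate early genes 5 rose and 1 fell, and the median was 0.17. FOS, a subunit of AP-1, had 20.3 and 21.2 CPM in the JIB-04 libraries and 7.98 and 9.73 CPM in the DMSO libraries (log2 fold change 1.23 ± 0.16 SE, adjusted p = 8.25e-04). PHLDA1 had 20.5 and 20.4 CPM with JIB-04, against 8.64 and 8.97 CPM in DMSO (log2 fold change 1.21 ± 0.15 SE, adjusted p = 5.51e-04). TSC22D3, a glucocorticoid-induced factor also known as GILZ, had 14.1 and 15.5 CPM with JIB-04, against 31.9 and 27.9 CPM in DMSO and fell by 1.01 (adjusted p = 0.00150). JUNB, another AP-1 subunit, rose by 1.25 (adjusted p = 0.00464). FOS, PHLDA1 and TSC22D3 held in all 12 alternatives.

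AP-1 is known to bind TGAGTCA and TGACTCA. The searched motif TGANTCA also takes in TGAATCA and TGATTCA, so its shares are not those of AP-1 sites alone. Promoters with the motif TGANTCA are shown for genes from several of the groups that rose. It stood in 4.38% of the promoters of all tested genes, in 31 of 273 promoters of genes that rose (11.4%) and in 3 of 83 promoters of genes that fell (3.61%). Of 70 named genes that rose and had a promoter, 7 held it, and 5 of these are given here along the gene, 5′ to 3′, with the match in capitals.
MT2A, chr16:56608465-56608501, plus strand: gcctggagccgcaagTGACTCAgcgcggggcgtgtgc
GSTP1, chr11:67583731-67583767, plus strand: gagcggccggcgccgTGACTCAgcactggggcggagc
IL1RN, chr2:113117733-113117769, plus strand: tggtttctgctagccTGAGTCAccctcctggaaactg
DDIT3, chr12:57520734-57520764, minus strand: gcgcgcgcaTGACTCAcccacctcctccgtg
BBC3, chr19:47232759-47232795, minus strand: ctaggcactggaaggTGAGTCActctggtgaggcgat
In MT2A and GSTP1 the next letters are gc, so that the match also meets the antioxidant element core TGACNNNGC. Matches of these motifs overlapped in 44 of the 10345 promoters. TGACNNNGC stood in 15.4% of the promoters of all tested genes, in 17.6% of those of genes that rose and in 14.5% of those of genes that fell. TGACGTCA, the cAMP response element, stood in 3.31% of the promoters of all tested genes, in 2.93% of those of genes that rose and in 1.2% of those of genes that fell. No test was made of these shares.

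Some regulators of mRNA decay and of signalling passed, while most members of their lists did not. ZFP36L1, which binds AU-rich elements and speeds mRNA decay, had 12.2 and 11.7 CPM in the JIB-04 libraries and 2.85 and 2.6 CPM in the DMSO libraries (log2 fold change 2.13 ± 0.19 SE, adjusted p = 3.49e-05), and its relative ZFP36 rose by 0.81 (adjusted p = 0.00425). These were the 2 that passed of 14 tested genes of mRNA decay, whose median was 0.03. RGS2, which shortens signals from G protein-coupled receptors, had 7.09 and 9.6 CPM with JIB-04, against 2.03 and 2.24 CPM in DMSO (log2 fold change 1.96 ± 0.23 SE, adjusted p = 4.06e-04). RGS1 had 2.74 and 4.39 CPM with JIB-04, against 0.254 and 0.0897 CPM in DMSO, so that its log2 fold change of 4.37 rests on few DMSO reads, and RGS12 was the third of 9 tested RGS genes that rose. The call of RGS12 was lost in DESeq2 (adjusted p = 0.0954), in limma-voom (adjusted p = 0.0614), in the fit of all 8 libraries and without either DMSO library. DUSP4, a phosphatase of MAP kinases, had 11.2 and 8.95 CPM with JIB-04, against 4.32 and 4.53 CPM in DMSO (log2 fold change 1.18 ± 0.19 SE, adjusted p = 0.00383), and DUSP10 rose by 0.77 (adjusted p = 0.0158). These were the 2 that passed of 15 tested DUSP, SPRED and SPRY genes, whose median was 0.16. ARRDC3, an α-arrestin that directs membrane proteins to degradation, had 17.3 and 16.9 CPM in the JIB-04 libraries and 3.46 and 3.18 CPM in the DMSO libraries. It was the only one of 4 tested α-arrestins to pass (log2 fold change 2.37 ± 0.17 SE, adjusted p = 1.02e-05), and the median of the 4 was 0.09. ZFP36L1, RGS1, RGS2, DUSP4 and ARRDC3 held in all 12 alternatives.

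The named genes with the largest rises also included CEMIP, which takes part in the breakdown of hyaluronan. CEMIP had 41.2 and 33.2 CPM in the JIB-04 libraries and 4.98 and 5.34 CPM in the DMSO libraries (log2 fold change 2.85 ± 0.17 SE, adjusted p = 2.34e-06). CRISPLD2, a secreted protein, had 4.78 and 4.48 CPM with JIB-04, against 0.965 and 1.03 CPM in DMSO (log2 fold change 2.20, adjusted p = 5.77e-04), and STAT5A, a transcription factor of cytokine signalling, had 5.05 and 4.11 CPM with JIB-04, against 1.27 and 1.08 CPM in DMSO (log2 fold change 1.96, adjusted p = 0.00150). TGM2, transglutaminase 2, had 6.87 and 3.74 CPM with JIB-04, against 0.965 and 1.52 CPM in DMSO (log2 fold change 2.06, adjusted p = 0.00425), and MAML2, a Notch coactivator, had 6.28 and 6.69 CPM with JIB-04, against 1.93 and 1.70 CPM in DMSO (log2 fold change 1.84, adjusted p = 5.51e-04). LRRC25 and GLIS3 completed this set with log2 fold changes of 1.99 and 1.92. SMIM11 had 3.70 and 15.3 CPM with JIB-04, against 0.762 and 1.97 CPM in DMSO. Its JIB-04 replicates were far apart, it has a near-identical copy, and its log2 fold change of 2.78 became 1.41 without JIB-04 replicate 2. CEMIP, CRISPLD2, STAT5A, MAML2, LRRC25 and GLIS3 held in all 12 alternatives, and TGM2 and SMIM11 did not.

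S100P, a calcium-binding protein, had the largest fall among the named genes. It stood at 3.97 and 3.79 CPM in the JIB-04 libraries and 18.3 and 16.9 CPM in the DMSO libraries (log2 fold change -2.18 ± 0.17 SE, adjusted p = 1.29e-05), and this held in all 12 alternatives. Of 7 tested S100 genes it was the 1 that fell, while S100A4 rose by 0.65, against 0.42 without JIB-04 replicate 1. PPM1M, a protein phosphatase, had 7.09 and 6.69 CPM with JIB-04, against 13.7 and 13.6 CPM in DMSO (log2 fold change -0.99 ± 0.16 SE, adjusted p = 0.00412), which also held in all 12 alternatives. NIBAN1, a stress-induced protein, had 4.99 and 6.55 CPM with JIB-04, against 12.8 and 12.8 CPM in DMSO (log2 fold change -1.14, adjusted p = 0.00354), and ULBP1, a ligand of the receptor NKG2D on natural killer cells, had 4.94 and 5.82 CPM with JIB-04, against 10.6 and 9.68 CPM in DMSO (log2 fold change -0.91, adjusted p = 0.0135). GALNT4 (log2 fold change -1.03, adjusted p = 0.0264), ARHGAP11B (log2 fold change -0.92, adjusted p = 0.0335) and ZNG1DP (log2 fold change -1.41, adjusted p = 0.0141) fell, at low levels. GALNT4 and ARHGAP11B did not pass in DESeq2 (adjusted p = 0.0523 and 0.0757). The calls of GALNT4, ARHGAP11B and ZNG1DP were lost in the fit of all 8 libraries. IQCJ-SCHIP1, a read-through gene, fell by 0.98, against 0.63 without DMSO replicate 1, where it no longer passed.

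**Figure D4:**
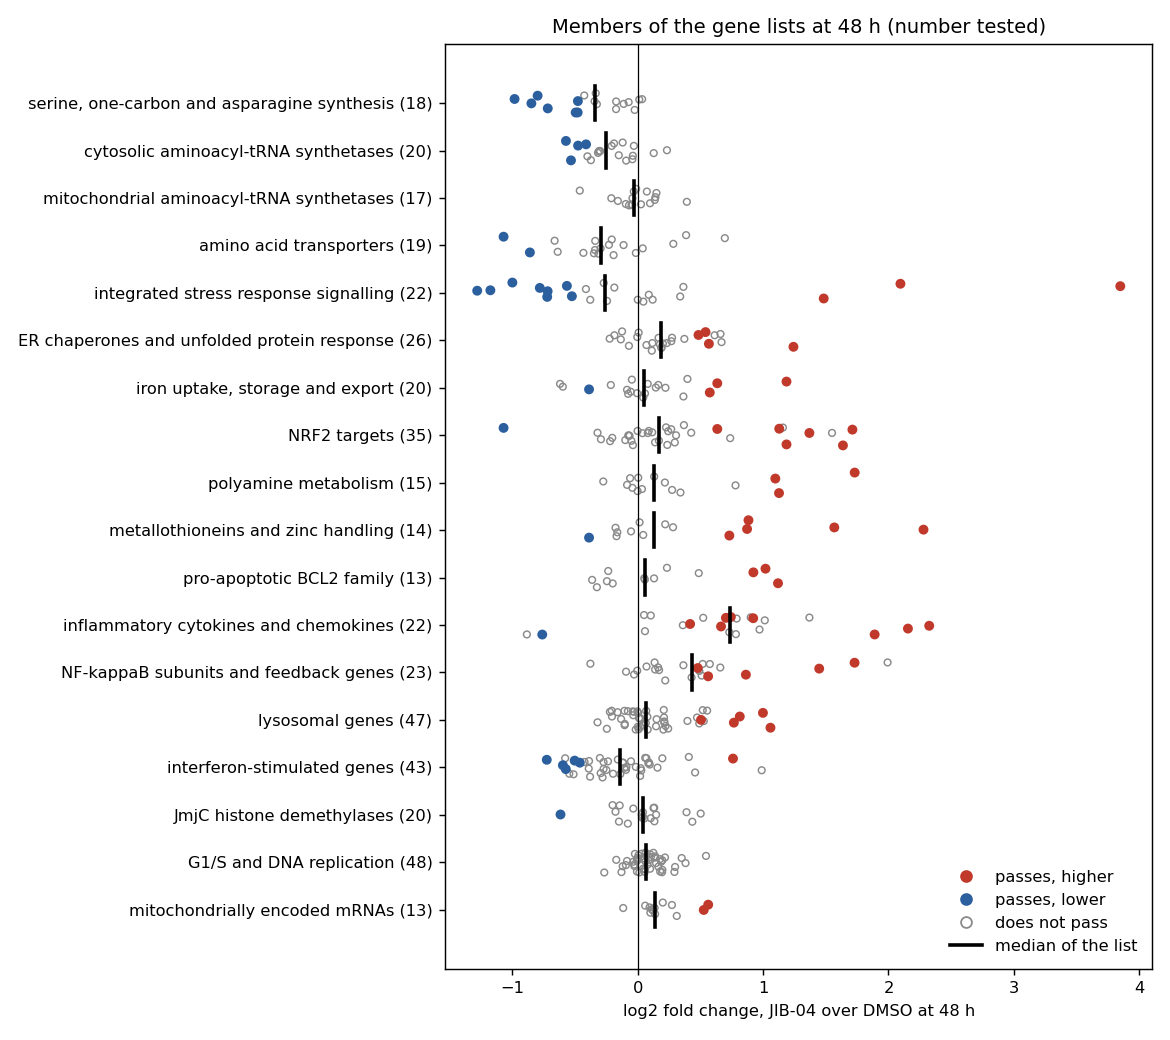
Log2 fold change, JIB-04 over DMSO at 48 h, of each tested member of 18 gene lists; the number tested stands in parentheses, filled points passed as higher (red) or lower (blue), open points did not pass, and the black bar is the median of the list. Serine, one-carbon and asparagine synthesis has 7 members that fell and none that rose, and cytokines and chemokines have 8 that rose and 1 that fell.

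The labelled cell type was checked against markers of myeloid blasts, which summed to 3573 and 3915 CPM with JIB-04 and 3361 and 3420 CPM in DMSO. NPM1, which is also in the list of MYC and ribosome biogenesis, made up most of each sum. It had 2126 and 2587 CPM with JIB-04, against 2216 and 2197 CPM in DMSO, so the sums say little about the cell type. CD33, a myeloid surface marker, had 85.4 and 79.4 CPM with JIB-04, against 81.9 and 82.2 CPM in DMSO (log2 fold change 0.01, adjusted p = 0.984), and FLT3, a receptor kinase of progenitors, had 162 and 194 CPM with JIB-04, against 187 and 190.1 CPM in DMSO (log2 fold change -0.08, adjusted p = 0.766). CD34 was at or near 0 in every library, CD14 had 2.58 and 2.31 CPM with JIB-04, against 1.73 and 1.66 CPM in DMSO, and MPO, myeloperoxidase, had 2.26 and 1.62 CPM with JIB-04, against 2.49 and 2.11 CPM in DMSO. Markers of erythroid, megakaryocyte, B or plasma, epithelial and fibroblast cells each summed to less than 10 CPM in every library, and none of the 11 tested passed in edgeR, DESeq2 or limma-voom, with 1 at an unadjusted p under 0.05 in edgeR. The 20 markers of T or NK cells summed to 265 and 244 CPM with JIB-04 and 269 and 265 CPM in DMSO. Most of this was CD4, which had 233 and 211 CPM with JIB-04, against 253 and 247 CPM in DMSO. Of 4 of them that were tested, GZMA, a granule protease (13.6 and 15.8 CPM with JIB-04, against 5.13 and 6.32 CPM in DMSO; log2 fold change 1.36 ± 0.18 SE, adjusted p = 8.88e-04), and NKG7 (9.88 and 9.97 CPM with JIB-04, against 4.73 and 4.62 CPM in DMSO; log2 fold change 1.09 ± 0.17 SE, adjusted p = 0.00392) rose, and GZMA held in all 12 alternatives. TRAC, CD3E, CD8A and GZMB were at or near 0, and 7 of the 20 were at 0 in all 4 libraries or had no entry in the table.

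Of 33 tested myeloid surface, granule and oxidase genes 3 rose (9.09%, against 3.39% of all tested genes that passed) and none fell, with a median of 0.16. CD163, a scavenger receptor of macrophages, had 15.5 and 13.4 CPM in the JIB-04 libraries and 7.16 and 6.59 CPM in the DMSO libraries (log2 fold change 1.07 ± 0.16 SE, adjusted p = 0.00332), which held in all 12 alternatives. LYZ, lysozyme, had 208 and 202 CPM with JIB-04, against 134 and 135 CPM in DMSO (log2 fold change 0.61, adjusted p = 0.00566), and VCAN, a proteoglycan of monocytes, had 193 and 208 CPM with JIB-04, against 128 and 135 CPM in DMSO (log2 fold change 0.61, adjusted p = 0.00677). Of 25 tested myeloid transcription factors 2 rose (8%), among them BCL6 (log2 fold change 0.72, adjusted p = 0.0162), and none fell. The median of the list was 0.22, against -0.04 after removal of the GC trend. HOXB9 was the 1 of 25 tested HOX, MEIS and PBX genes that passed. It had 27.0 and 29.8 CPM with JIB-04, against 47.2 and 47.3 CPM in DMSO and fell by 0.73 (adjusted p = 0.00561). The calls of LYZ, VCAN, BCL6 and HOXB9 were lost in the fit of all 8 libraries, among other alternatives.

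Of 43 tested interferon-stimulated genes 5 fell and 1 rose, with a median of -0.14. OAS2, an antiviral synthetase, had 94.2 and 104 CPM in the JIB-04 libraries and 147 and 153 CPM in the DMSO libraries (log2 fold change -0.60 ± 0.11 SE, adjusted p = 0.00943). IFI44L fell by 0.73, IFI6 by 0.57 and XAF1 by 0.50, with adjusted p of 0.0252, 0.0336 and 0.0390. ISG15, a ubiquitin-like protein, was the one that rose, by 0.76, against 0.47 after removal of the GC trend. None of these calls held in the fit of all 8 libraries.

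JmjC demethylases are the enzymes JIB-04 acts on, and the data give the levels of their own mRNA. Of 20 tested JmjC histone demethylases 1 passed: KDM7A, which had 59.2 and 74.7 CPM in the JIB-04 libraries and 103 and 103 CPM in the DMSO libraries and fell by 0.62 (adjusted p = 0.0169). The call of KDM7A was lost in the fit of all 8 libraries (adjusted p = 0.232). In that fit its log2 fold change was -0.61 at 48 h and 0.30 at 24 h, but the difference between the times did not pass (adjusted p = 0.909). With all 8 libraries normalised together, JIB-04 was at 60.3 and 72.8 CPM at 24 h and 59.9 and 76.7 CPM at 48 h. DMSO was at 57.8 and 50.4 CPM at 24 h and 104 and 105 CPM at 48 h. KDM4A had 139 and 127 CPM with JIB-04, against 150.3 and 155 CPM in DMSO (log2 fold change -0.20, adjusted p = 0.342), and KDM5A had 152 and 169 CPM with JIB-04, against 142 and 151 CPM in DMSO (log2 fold change 0.13, adjusted p = 0.562). KDM6B, an H3K27 demethylase, had 41.3 and 33.7 CPM with JIB-04, against 27.1 and 25.8 CPM in DMSO (log2 fold change 0.50, adjusted p = 0.0677). Of 31 tested histone methyltransferases and LSD demethylases DOT1L, the H3K79 methyltransferase, was the 1 that passed, with 0.51, against 0.24 after removal of the GC trend. The call of DOT1L was lost in limma-voom (adjusted p = 0.0540) and in the fit of all 8 libraries (adjusted p = 0.629). No DNA methyltransferase, TET or IDH gene of 10 tested passed in edgeR, DESeq2 or limma-voom, and 3 had an unadjusted p under 0.05 in edgeR. After removal of the GC trend 2 of these 10 rose and 1 fell, beside 14.2% of all tested genes that passed in that fit.

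Lists of growth and energy metabolism are given next. Neither the 48 tested G1/S and DNA replication genes nor the 42 tested G2/M genes had a member that passed in edgeR, with medians of 0.06 and 0.10. Unadjusted p in edgeR was under 0.05 for 5 of the 48 and 6 of the 42, limma-voom called none of either, and DESeq2 called 1, CDT1, a licensing factor of replication named after its value was seen. MKI67, a marker of cycling cells, had 497 and 503 CPM with JIB-04, against 457 and 477 CPM in DMSO (log2 fold change 0.10, adjusted p = 0.641). MCM7, a subunit of the replicative helicase, had 766 and 606 CPM with JIB-04, against 671 and 647 CPM in DMSO (log2 fold change 0.06, adjusted p = 0.849). After removal of the GC trend, 11 G2/M genes and 5 G1/S genes rose and none of either fell. In that fit 7.38% of all tested genes rose. CDKN1A, the CDK inhibitor p21, had 41.8 and 30.7 CPM with JIB-04, against 28.9 and 29 CPM in DMSO (log2 fold change 0.32, adjusted p = 0.277), and MYC had 517 and 475 CPM with JIB-04, against 487 and 473 CPM in DMSO (log2 fold change 0.05, adjusted p = 0.857). No gene of 42 tested in MYC and ribosome biogenesis passed in edgeR or limma-voom, 1 did in DESeq2 (NAT10, which acetylates RNA, likewise named after its value was seen), and 8 had an unadjusted p under 0.05 in edgeR. After removal of the GC trend 4 of these 42 rose and 9 fell, beside 14.2% of all tested genes that passed in that fit. Of 63 cytosolic ribosomal proteins 1 passed, RPS28, which rose. Of 13 mitochondrially encoded mRNAs, MT-ND4 (8863 and 9712 CPM with JIB-04, against 6250.5 and 6646 CPM in DMSO; log2 fold change 0.53, adjusted p = 0.00340) and MT-ND4L (log2 fold change 0.56, adjusted p = 0.00690), whose transcripts overlap, rose, and of 49 nuclear-encoded genes of oxidative phosphorylation NDUFS7 and ATP5F1D rose. The share of mitochondrially encoded counts was also higher with JIB-04, as given above, and its part in these values was not tested.

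Whether an effect differed between 48 h and 24 h was tested over all 8 libraries, and no gene of 15248 passed in edgeR (0% of tested genes), where the smallest adjusted p in edgeR was 0.0842 and 798 genes had an unadjusted p under 0.05 (5.23%). DESeq2 called 12 genes (0.0787%) and limma-voom 1 (0.00656%), and 163 (1.07%) passed in edgeR after removal of the GC trend. In tests on simulated data edgeR recovered 76% of 4-fold differences but 16% of 2-fold differences between the times, so smaller differences would mostly be missed. Of the 361 genes higher at 48 h, 312 (86.4%) also had a positive log2 fold change at 24 h, against 53.3% of all tested genes. Their median was 0.33 at 24 h and 0.83 at 48 h. Of the 134 genes lower at 48 h that could be compared, 101 (75.4%) were negative at 24 h, against 46.7% of all tested genes, with medians of -0.31 at 24 h and -0.73 at 48 h. The genes were chosen for their size at 48 h, so the larger median at 48 h is no finding.

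Values at 24 h are set out here for genes of iron, lipid storage and stress. At 24 h FTH1 had 409.7 and 416 CPM with JIB-04 and 411 and 374 CPM in DMSO, and the JIB-04 and DMSO libraries overlapped. Its log2 fold change was 0.07 at 24 h and 1.20 at 48 h in the fit of all 8 libraries. The difference was 1.12 ± 0.14 (SE; adjusted p = 0.167) in edgeR, while DESeq2 gave 1.13 with an adjusted p of 2.63e-06. TFRC at 24 h had 439 and 572 CPM with JIB-04 and 221 and 186 CPM in DMSO, with log2 fold changes of 1.31 at 24 h and 0.59 at 48 h. The difference of -0.73 ± 0.22 (SE; adjusted p = 0.931) did not pass. TFRC was higher in both JIB-04 libraries than in the DMSO libraries of the same time. PLIN2 had 102 and 94.8 CPM with JIB-04 and 97.2 and 85.6 CPM in DMSO at 24 h, and its difference of 0.91 ± 0.17 (SE; adjusted p = 0.668) did not pass in edgeR, while DESeq2 gave 0.92 with an adjusted p of 0.0167. CEMIP had 36.1 and 30.2 CPM with JIB-04 and 13.3 and 15.4 CPM in DMSO at 24 h and a difference of 1.65 ± 0.24 (SE; adjusted p = 0.345) in edgeR, against 1.66 with an adjusted p of 0.000291 in DESeq2. CEMIP with JIB-04 was near its 48 h level at 24 h, while DMSO was lower at 48 h than at 24 h. DNAJB9 had 13.6 and 17.9 CPM with JIB-04 and 3.42 and 2.45 CPM in DMSO at 24 h. PSAT1 had 274 and 292 CPM with JIB-04 and 579 and 500.3 CPM in DMSO at 24 h, and neither gene's difference between the times passed. EMP1, a membrane protein, and LDLRAD4 were also among the 12 calls of DESeq2, with differences of 3.63 and -1.51 (adjusted p = 0.026 and 0.0108), and are named after their values were seen.

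**Figure D5:**
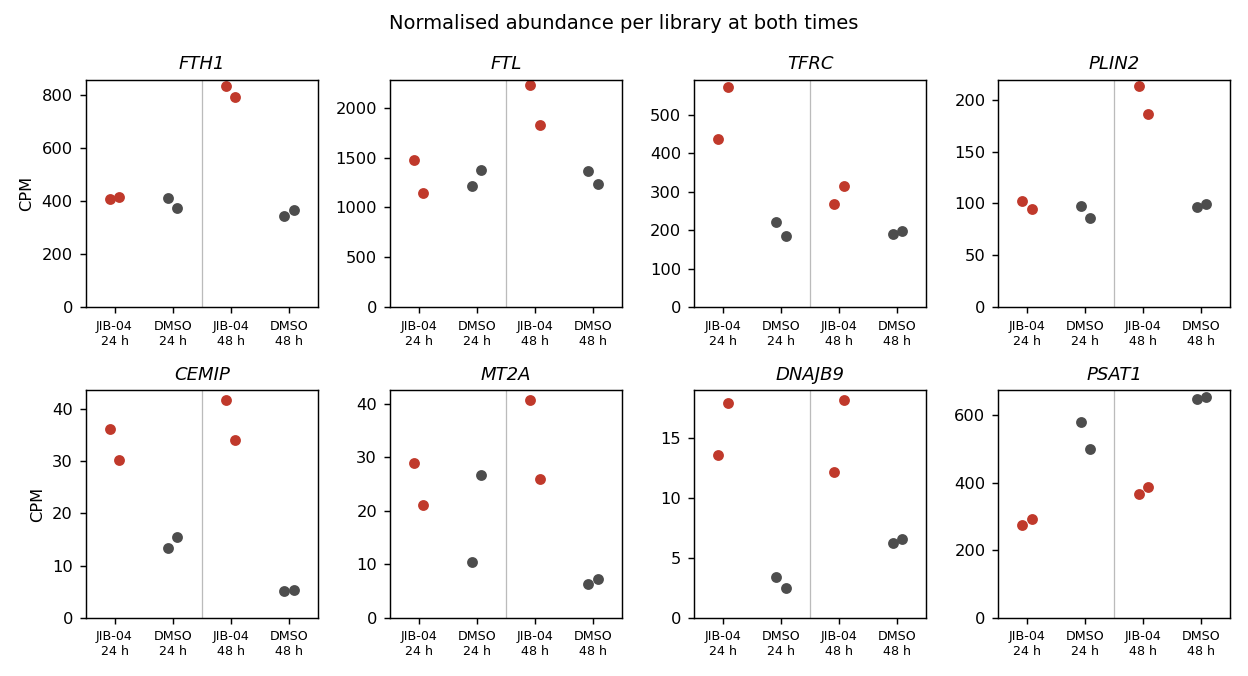
CPM of 8 genes in each of the 8 libraries, normalised together, with JIB-04 in red and DMSO in grey at 24 h (left of the line) and 48 h (right of it). FTH1 with JIB-04 overlaps the DMSO values at 24 h and above both DMSO libraries at 48 h, while TFRC with JIB-04 is highest at 24 h.

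The authors' deposited table for 48 h held 438 genes with an adjusted p under 0.05, 314 higher and 124 lower. Of these, 355 were also among the 496, which is 81.1% of their genes and 71.6% of the 496.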

How the data were processed

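RNA-seq of AML-OCI3 cells was analysed from the gene tables of the series. Per the file headers, the authors deposited an expected count per gene and library as RSEM estimates it, TPM values, and their own comparison as a log2 fold change, p-value and adjusted p-value. Per the submitters' processing notes, cutadapt, STAR 2.6.1, RSEM and the build hg38 were used. The tool behind the authors' comparison and the settings of counting are not stated in what was available. Per the labels' protocols, libraries were made from TRIzol RNA with a stranded poly(A) kit.

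Expected counts were rounded to whole numbers and filtered with filterByExpr (minimum count 10, minimum total 15). After TMM scaling, edgeR 4.0.16 (R 4.3.3) fitted 1 mean for each group to the 4 libraries of 48 h, which left 2 residual degrees of freedom. All adjusted p-values are from its two-sided quasi-likelihood F test with Benjamini-Hochberg adjustment over all tested genes unless another tool is named, and log2 fold changes are JIB-04 over DMSO. The difference between 48 h and 24 h was fitted over all 8 libraries and 15248 genes. CPM values use TMM-scaled library sizes, and in the comparison of times those of all 8 libraries. Values after ± are SE of the fit, and 1 count was worth 0.0451 to 0.0532 CPM.

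On simulated data with the means and library sizes of the 48 h comparison (14398 genes), the test recovered 52% of genes changed 1.5-fold, 82% of those changed 2-fold and 100% of those changed 4-fold. It also made 17 false calls, with 50 genes changed at each fold. For the difference between times (14977 genes), 2%, 16% and 76% were recovered, with 7 false calls. The simulated counts held no trend over GC content, unlike the JIB-04 replicates at 48 h, so recovery and false calls in the real libraries may differ. The alternatives were RLE scaling, no filter, DESeq2 1.42.0, limma-voom (limma 3.58.1), the replicate number as a block, removal of a trend on gene GC content with and without that block, a fit of all 8 libraries, and leaving out each library. GC content came from GENCODE 29 gene models, and coordinates of genes from the same annotation.

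Members and gene lists were chosen with earlier results of these data known. Named genes were the 15 largest rises and 15 largest falls whose groups did not overlap and whose mean log2 CPM was 1 or more, up to 4 passing members with the smallest p of each list, a set of genes for ferroptosis, apoptosis and demethylation, and up to 3 of the most abundant members of lists without a call. Further genes are named with their values known, to describe a list. Lists are described by counts and medians without a test of the list. Values of a few genes are not reported here.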

Additional observations from a re-analysis of the deposited data

How the results depend on the processing

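The count of 496 genes at 48 h was 538 with RLE scaling, 469 in DESeq2 and 395 in limma-voom. It was 1104 without the filter on low counts (784 higher, 320 lower), 2075 with the GC trend removed (1079 higher, 996 lower) and 59 in the fit of all 8 libraries (48 higher, 11 lower), and it lay between 191 and 4777 when 1 library was left out. The share of calls that were higher was 72.8%, against 52.0% with the GC trend removed. The replicate numbers did not pair the libraries by their labels, and deviations of equal numbers correlated at 0.092. With the replicate block 1147 genes passed, 815 higher and 332 lower, and with the block and the GC trend removed 3385, 1690 higher and 1695 lower. The GC correction moved the median of all genes by -0.02. For the difference between times no gene passed in edgeR, with RLE scaling, with the replicate block or with the block and the GC trend removed, while DESeq2 called 12, the GC trend removed 163 (99 higher, 64 lower), limma-voom 1 and the fit without a filter 1. Leaving out 1 library gave 0 to 1. Both single calls of limma-voom and of the fit without a filter were ENSG00000264668, and the call without DMSO 48 h replicate 2 was ENSG00000285779, named after their values were seen. GPX4 at 48 h had a log2 fold change of 0.04, and -0.22 with the GC trend removed, with or without the replicate block (adjusted p = 0.0024 and 0.0455). None of the 122 passing genes taken by the naming rule changed its direction in the 12 alternatives; other genes named in the text were not counted in this. The cause of these changes was not tested. Each group has 2 libraries, and the effect of depth on these counts was not tested.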

Other observations

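Genes outside the lists also passed at 48 h, and those given here were chosen after their values were seen. Cytoskeleton and nuclear lamina genes were among them: VIM, vimentin, had 1045 and 999.9 CPM with JIB-04, against 682 and 655 CPM in DMSO (log2 fold change 0.61, adjusted p = 0.00326), and LMNA, lamin A, had 47.9 and 40.3 CPM with JIB-04, against 19.1 and 22.3 CPM in DMSO (log2 fold change 1.09, adjusted p = 9.57e-04). CREBRF, a regulator of the CREB3 family, had 34.1 and 41.0 CPM with JIB-04, against 13.9 and 12.6 CPM in DMSO (log2 fold change 1.5, adjusted p = 8.85e-05), and MMP9, a secreted protease of the extracellular matrix, rose as well (log2 fold change 1.29, adjusted p = 0.00104). Among genes of amino acid metabolism outside the lists, ASS1, argininosuccinate synthase, had 457 and 402 CPM with JIB-04, against 747 and 734 CPM in DMSO (log2 fold change -0.79, adjusted p = 8.93e-04). BCAT1, the cytosolic aminotransferase of branched-chain amino acids, fell by 0.67 (adjusted p = 0.00561), and PCK2, the mitochondrial PEP carboxykinase, by 0.55 (adjusted p = 0.0264).

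Counts in edgeR for lists not described above are given here, beside the 3.39% of all tested genes that passed. Of 32 tested p53 targets GDF15, BBC3 and PLK2 rose and none fell (9.38% of the list), and of 37 tested genes of glycolysis and hypoxia SLC2A3, a glucose transporter, rose (57.9 and 55.0 CPM with JIB-04, against 34.9 and 35.1 CPM in DMSO; log2 fold change 0.69, adjusted p = 0.00623) and VEGFA fell, which makes 5.41% of that list. PLK2 did not pass in DESeq2 (adjusted p = 0.0824) or limma-voom (adjusted p = 0.0512). The calls of BBC3, PLK2, SLC2A3 and VEGFA were lost in the fit of all 8 libraries. Of 21 tested genes of sestrins and growth restraint, 2 rose, among them CASTOR1, an arginine sensor of mTORC1 (3.11 and 2.54 CPM with JIB-04, against 0.406 and 0.897 CPM in DMSO; log2 fold change 2.08, adjusted p = 0.00848), and 2 fell, together 19% of the list. Of 14 tested replication-dependent histones H1-2, H2AC6 and H2BC21 rose (21.4%), and DESeq2 called none of these. Of 37 tested DNA repair genes XRCC1 rose (log2 fold change 0.59, adjusted p = 0.0357), and of 20 tested genes of MHC class I presentation PSMB10 (log2 fold change 0.70, adjusted p = 0.0281). None of 13 tested cyclins, CDKs and CDK inhibitors and none of 16 tested genes of fatty acid synthesis passed in edgeR, DESeq2 or limma-voom, with 1 of each at an unadjusted p under 0.05 in edgeR. None of 6 tested MHC class II genes passed in any of these tools, and none had an unadjusted p under 0.05 in edgeR.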
